A study of Mus musculus with 17 samples.

Results

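Gene expression was compared between mouse pancreatic stellate cells grown in medium conditioned by pancreatic tumour organoids (called CM here) and the same cells grown with TGF-beta. The comparison sets a treatment known for the inflammatory state of these cells against one known for their myofibroblastic state. The comparison held 8 of the 17 libraries of the series: 4 in CM without an inhibitor and 4 in control medium to which TGF-beta was added at 20 ng/mL. They were chosen by the treatment in their labels, and no measured value was used. All cells were wild type with a C57BL/6J background, were kept in Matrigel, a basement membrane gel, and were sampled on day 4. The CM group held 2 libraries of the line PSC4 (passages 24 and 23) and 2 of the line PSC5 (passages 28 and 27). In each line, 1 CM library carried the code T6 (number 2) and 1 the code T8 (number 1), and the labels do not say what these codes stand for. The TGF-beta group held PSC4 numbers 2 and 3 (passages 24 and 25) and PSC5 numbers 1 and 2 (passages 27 and 28). A group of 5 libraries in control medium (PSC4 numbers 1 to 3, PSC5 numbers 1 and 2) gives the level without either treatment. Beyond the 2 lines and the passages, nothing says whether libraries came from separate cultures, so p-values measure the spread between these libraries, which may be technical.

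Stellate cells are the resident mesenchymal cells of the pancreas and a source of its tumour fibroblasts. TGF-beta binds a pair of receptor kinases that phosphorylate SMAD proteins, and it is the classic inducer of myofibroblasts, which build contractile fibres and deposit collagen. Signals from tumour cells such as IL-1 act through NF-kB, LIF and STAT3, and are known for an inflammatory fibroblast that secretes cytokines, chemokines and acute phase proteins.

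Values are CPM, the read counts scaled to a common library size with TMM factors, and a gene is called at an adjusted p under 0.05 by edgeR. Higher or lower in CM means against TGF-beta unless control is named, so a gene higher in CM can lie at or below its control level. A ± beside a CPM value is the SD (n = 4 libraries unless stated), and a ± beside a log2 fold change is its standard error. For the 8 libraries the totals lay between 24318973 and 29421447 counts, and 3 counts in a library stood for 0.101 to 0.129 CPM in these 8 libraries. Mitochondrial transcripts took 1.78% to 1.98% of a CM library and 1.48% to 2.33% of a TGF-beta library. On the third principal component of all 17 libraries (14.9% of the variance), the CM library labelled PSC4 number 1 lay at 23.75, beside the PSC5 CM libraries (9.74 and 18.6) and away from PSC4 number 2 (-40.9). The control library labelled PSC4 number 1 lay on the PSC5 side too, at 37.0. The counts of called genes without the libraries labelled PSC4 number 1 are given beside those of all genes, and for the gene lists where they differ by more than 1.5 times. Each gene's CM values are listed as PSC4 T6, PSC4 T8, PSC5 T6 and PSC5 T8, and its TGF-beta values as PSC4 number 2, PSC4 number 3, PSC5 number 1 and PSC5 number 2.

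Of 15 stellate cell and fibroblast markers, each was above 3 counts in at least 1 library of both groups. Their summed level was 7286 to 9127 CPM in CM, 12760 to 24790 CPM with TGF-beta and 6892 to 8963 CPM in control (CM against TGF-beta, exact permutation p = 0.0286, two-sided, the smallest that 4 against 4 allows; 0.0643 after adjustment over 9 library measures). Col1a1 (7748 CPM on average with TGF-beta), Col3a1 (3046 CPM), Sparc (3045 CPM) and Col1a2 (2594 CPM) made up most of the TGF-beta sum, against 1534, 901, 1618 and 651 CPM in CM. Members went both ways, with 4 of the 14 tested called higher in CM and 6 lower, and Dcn (1536 against 50.5 CPM) and Pdpn (393 against 164 CPM) were higher on average in CM. The stellate cell marker Gfap was near 0, at 2 to 9 counts in the CM libraries and 1 to 5 counts in the TGF-beta libraries. Epithelial markers were above 3 counts in any CM library for 21 of 24 genes and in any TGF-beta library for 15, and Tff2 was at 0 in all 8. Their sum was 238 and 216 CPM in the CM libraries with code T6, 71.6 and 86.7 CPM in those with T8, and 89.3 to 145 CPM with TGF-beta (exact permutation p = 0.429, two-sided). Sox9 was the largest member on average, at 42.7 CPM in CM, 91.9 CPM with TGF-beta and 63.4 CPM in control. It made up most of the TGF-beta sum, so the sums and their p-value do not stand for the other members. The keratin gene Krt8 reached 1233 and 1173 counts with code T6, 12 and 147 with T8, and 5 to 25 in TGF-beta libraries. Of 18 immune markers 6 were at 0 in all 8 libraries, among them Adgre1, Cd3e and S100a9, and Ptprc reached 1 count at most. The immune sum, 29.9 to 55.7 CPM in CM and 8.99 to 10.3 CPM with TGF-beta (exact permutation p = 0.0286, two-sided; 0.0643 adjusted), came mostly from Cd14, at 37.4 and 4.67 CPM on average. Mesothelial markers summed to 147 to 244 CPM in CM and 39.4 to 59.7 CPM with TGF-beta, with 10 and 9 of 14 above 3 counts in any library (exact permutation p = 0.0286, two-sided; 0.0643 adjusted). The largest member was Slc9a3r1, at 108 CPM on average in CM, 32.7 CPM with TGF-beta and 68.3 CPM in control. Msln had 513 to 1693 counts in the CM libraries, 4 to 270 with TGF-beta and 27 to 832 in control. Wt1 had 19 to 57 counts in CM and 35 to 76 with TGF-beta. Muc16 was at 0 in these 8 libraries, and Upk3b, Lrrn4 and Nkain4 had 4 counts or fewer. Antigen-presenting fibroblast markers summed to 21.4 to 82.4 and 6.14 to 16.4 CPM (the same p-values), with 5 and 6 of 8 above 3 counts. Cd74 was the largest member, at 34.2 and 3.98 CPM on average, and H2-Aa, H2-Ab1, H2-Eb1 and Ciita had 5 counts or fewer in these 8 libraries. Endothelial (23 to 45.3 and 24 to 41.2 CPM) and acinar and islet sums (7.94 to 12.9 and 5.06 to 8.21 CPM) had exact permutation p = 0.886 and 0.0571, two-sided. Of 19 epithelial markers that passed the filter 9 were called higher in CM, 4 without the CM library PSC4 number 2, 5 without the TGF-beta library PSC5 number 2, and 1 with the T8 libraries alone. The count was 14 with the T6 libraries alone, 12 with the replicate block and 17 without the libraries labelled PSC4 number 1. Krt8, Krt18 and Krt19 also stand in the mesothelial list. The part of other cells in the results below was not tested, and in bulk RNA fewer cells of a type and less RNA per cell cannot be told apart.

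**Figure D1:**
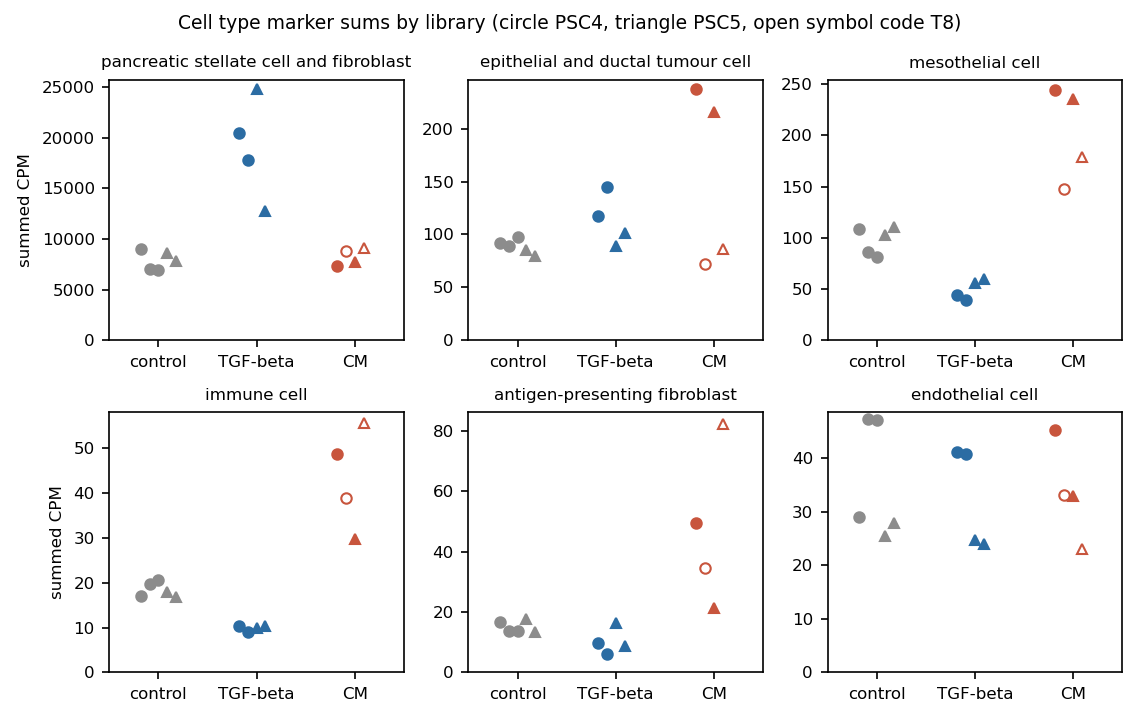
Summed CPM of 6 cell type marker lists (y axis, from 0) in each control, TGF-beta and CM library (x axis); circles are PSC4, triangles PSC5, and open symbols are CM libraries with the code T8. The epithelial sum is high in the T6 CM libraries (238 and 216 CPM) and not in the T8 libraries (71.6 and 86.7 CPM), and the fibroblast sum is highest with TGF-beta.

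Expression differed between CM and TGF-beta in a large share of genes. Of 13923 genes tested, 4904 (35.2%) were called at an adjusted p under 0.05 in edgeR's quasi-likelihood test, 2467 higher in CM (17.7%) and 2437 lower (17.5%). With a log2 change of at least 1 besides, 857 were higher (6.16%) and 718 lower (5.16%). The median log2 fold change of all genes was 0.015, and the biological coefficient of variation was 19.8%. Among the 13923 genes, every CM library was above every TGF-beta library in 2172, and every one was below in 2208. Groups without overlap were thus frequent among all genes. Without the libraries labelled PSC4 number 1, the count was 5851. It included 4636 of the 4904 genes, and each of these kept its direction. Without the libraries labelled PSC4 number 1, 2576 genes were called in CM against control and 6954 in TGF-beta against control, whose counts with all libraries follow. With only the T8 libraries standing for CM, 3696 genes were called, and with only the T6 libraries 3296. Against control medium, CM changed 1966 genes (14.1%; 978 or 7.02% higher, 988 or 7.1% lower) and TGF-beta 5591 (40.2%; 2742 or 19.7% higher, 2849 or 20.5% lower). With upper-quartile scaling 37.3% of the CM and 41.3% of the TGF-beta calls against control were higher, beside 49.7% and 49.0% with TMM. These last comparisons share the control libraries, and their values for a gene or list are given side by side. Where a list count below stands without a share, it is to be set beside these shares of all genes. That holds for the counts against control too. The CM against control count fell to 793 without the CM library PSC5 number 1, to 1257 without CM PSC4 number 2, and 1191 and 1192 without the control libraries PSC5 numbers 1 and 2. It was 377 with the T6 and 1080 with the T8 libraries alone, and 3257 with the replicate number as a block. No gene (0%) had a called difference between the lines in the effect of CM against TGF-beta by edgeR. At an unadjusted p under 0.05 there were 614, and DESeq2 called 19.

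**Figure D2:**
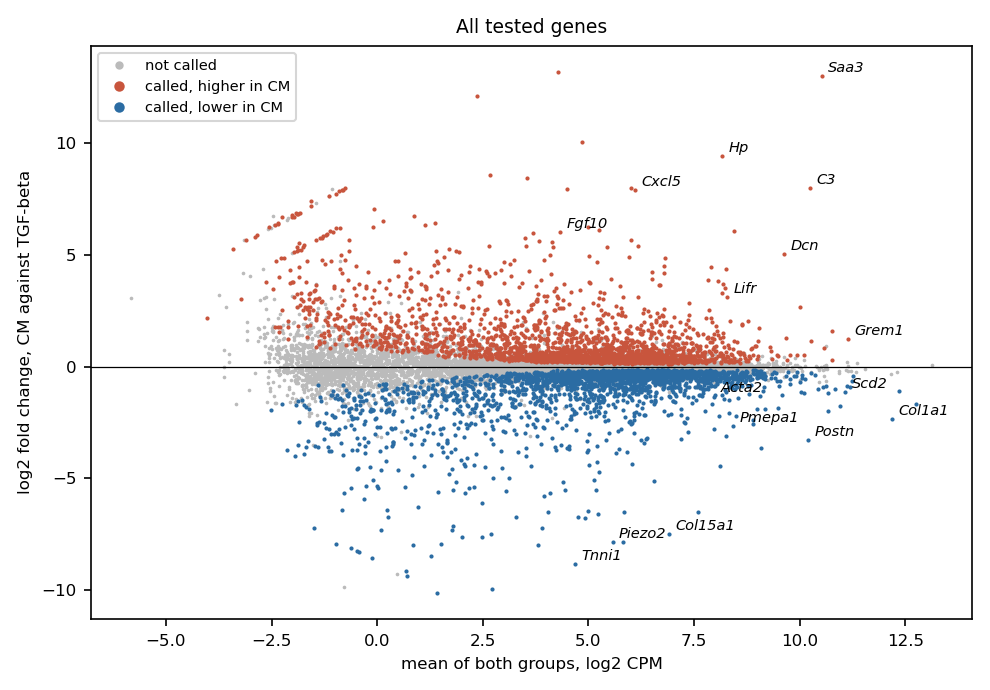
Log2 fold change of CM against TGF-beta (y axis) by the mean of both groups in log2 CPM (x axis) for the 13923 genes tested; red points are the 2467 genes called higher in CM, blue points the 2437 called lower, grey points were not called. Fitted values at the far left rest on counts near 0.

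Acute phase and iron-binding proteins, which the liver and inflamed tissues secrete, were the list with the highest share of members higher in CM together with NF-kB genes. Of 14 members tested, 13 were higher in CM and 0 lower, beside 17.7% and 17.5% of all genes, and the median log2 fold change was 4.65 (4.26 with the members near 0 counts set at their count ratios). Saa3, a serum amyloid A protein of inflamed connective tissue, had 3195, 2594, 1110.1 and 4888 CPM in CM and 0.827, 0.433, 0.043 and 0.203 CPM with TGF-beta. Every CM library lay above every TGF-beta library (log2 fold change 13.02, SE 1.26, adjusted p 2.82e-06, edgeR). Control libraries held 11.4 to 140.0 CPM, between the treatments (6.14 ± 0.83 for CM and -6.88 ± 1.11 for TGF-beta against control, log2). Lcn2, which binds bacterial iron carriers, had 57.3, 44.6, 27 and 100.9 CPM in CM and at most 3 counts in any TGF-beta library, 1146-fold (95% exact counting interval 491 to 3531) higher in CM (adjusted p 8.16e-07, edgeR). Hp, the haemoglobin scavenger haptoglobin, had 908, 350.3, 206 and 843 CPM in CM and 1.95, 1.59, 0.129 and 0.0814 CPM with TGF-beta (log2 fold change 9.42, SE 1.16, adjusted p 2.28e-05, edgeR). Serpina3f, a protease inhibitor of a family of close copies, had 63.1 ± 14.2 CPM in CM and 0.821 ± 0.542 CPM with TGF-beta (log2 fold change 6.25, SE 0.60, adjusted p 2.54e-06, edgeR). With T8 libraries alone, 14 members of the list were higher in CM, and with T6 alone 13. Against control, 11 members were higher and 0 lower in CM, and 1 was higher and 8 lower with TGF-beta.

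The promoters of Saa3 and Lcn2 are printed because these genes had the widest gap with a RefSeq entry (GRCm38.p6, 250 bases before to 50 after the start site, 5′ to 3′ along the gene). Capitals mark motif matches: in Saa3 a C/EBP match on the reverse strand, and in Lcn2 a C/EBP match and, after the start site, a short SMAD site on the reverse strand.
Saa3, chr7:46715627-46715926, minus strand: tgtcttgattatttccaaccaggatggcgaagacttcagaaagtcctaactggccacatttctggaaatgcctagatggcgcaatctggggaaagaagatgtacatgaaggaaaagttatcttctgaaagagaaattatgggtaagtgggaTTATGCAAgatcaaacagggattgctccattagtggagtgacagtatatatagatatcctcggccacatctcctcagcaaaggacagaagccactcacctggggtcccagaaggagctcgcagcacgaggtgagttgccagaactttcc
Lcn2, chr2:32387690-32387989, minus strand: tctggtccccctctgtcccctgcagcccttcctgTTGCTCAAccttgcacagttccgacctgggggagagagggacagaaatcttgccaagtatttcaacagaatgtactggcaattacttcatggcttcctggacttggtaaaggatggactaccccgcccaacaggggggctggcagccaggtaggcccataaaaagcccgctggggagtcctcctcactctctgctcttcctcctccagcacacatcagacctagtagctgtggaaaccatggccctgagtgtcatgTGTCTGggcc

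Complement genes, whose products tag cells for clearance, were higher in CM in 9 of 17 cases and lower in 2 (median log2 fold change 1.85, against 0.015 for all genes). C3, the protein on which the complement routes converge, had 1644, 2937, 1576 and 3505 CPM in CM and 15.4, 6.86, 10.4 and 4.39 CPM with TGF-beta, with no overlap (log2 fold change 7.99, SE 0.73, adjusted p 1.62e-06, edgeR). In control it held 435 to 637 CPM, above TGF-beta and below CM (2.09 ± 0.52 for CM and -5.90 ± 0.66 for TGF-beta against control, log2). Cfb, factor B of the alternative route, had 142 ± 67.1 CPM in CM and 3.42 ± 2.89 CPM with TGF-beta (log2 fold change 5.39, SE 0.95, adjusted p 0.000496, edgeR). The members lower in CM were Hc, complement C5 (-2.96 ± 0.43, log2), and Cd59a, an inhibitor of the membrane attack complex (-1.0 ± 0.27, log2). Against control, 3 complement genes were higher and 1 lower in CM, and 1 was higher and 8 lower with TGF-beta.

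Chemokines recruit leukocytes, and 12 of 17 were higher in CM with 1 lower (median log2 fold change 1.99). Cxcl5 and Cxcl1, which attract neutrophils, had the largest differences among members above 5 CPM. Cxcl1 had 43.6, 87.8, 46 and 123 CPM in CM and 1.28, 0.975, 1.72 and 0.325 CPM with TGF-beta (log2 fold change 6.11, SE 0.55, adjusted p 1.38e-06, edgeR). Its control libraries lay between, at 9.38 to 11.2 CPM. Cxcl5 had 82.2, 167, 90 and 208 and 0.639, 0.578, 1.03 and 0 CPM (log2 fold change 7.91, SE 0.65, adjusted p 6.11e-07, edgeR). For both genes the T8 libraries held more than the T6 libraries in each line. Ccl2, which attracts monocytes, had 459.7 ± 103 CPM in CM and 20.9 ± 3.49 CPM with TGF-beta (log2 fold change 4.46, SE 0.23, adjusted p 7.79e-09, edgeR). Cxcl12, the ligand of CXCR4, was not called: 2426, 2060.4, 1886 and 1786 CPM in CM and 1378, 1467, 1058 and 572 CPM with TGF-beta did not overlap (log2 fold change 0.91, SE 0.40, adjusted p 0.0968, edgeR). It passed the threshold in 5 of the 21 other settings, among them the replicate block (log2 fold change 1.28, adjusted p 0.00713, edgeR), with the lowest adjusted p at 0.00237 without the libraries labelled PSC4 number 1 (edgeR). The member lower in CM was Cx3cl1, the membrane-bound fractalkine (42.5 ± 17.7 CPM in CM and 145 ± 76.7 CPM with TGF-beta, log2 fold change -1.68, SE 0.40, adjusted p 0.00415, edgeR), for which the call ended with the T6 libraries alone (adjusted p 0.0718, edgeR). Against control, 10 chemokines were higher and 1 lower in CM, and 1 was higher and 10 lower with TGF-beta.

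Of the 14 cytokines and growth factors of inflammation tested, 7 were higher in CM and 1 lower (median 0.96, log2), or 2 lower with the replicate number as a block. Il6, the main inducer of acute phase genes, had 9.17, 8.73, 4.8 and 19.5 CPM in CM and 3.72, 5.13, 2.28 and 2.56 CPM with TGF-beta, and the groups overlapped (log2 fold change 1.66, SE 0.43, adjusted p 0.00774, edgeR). It fell to 1.01 on the log2 scale with the T6 libraries alone (adjusted p 0.0728, edgeR) and to 1.05 without the CM library PSC5 number 1. Against control Il6 was higher in CM (2.64 ± 0.42, log2, adjusted p 0.00141, edgeR) and was not called with TGF-beta (0.97 ± 0.43, log2, adjusted p 0.0833, edgeR). Csf3, the granulocyte growth factor, had 5.22, 2.92, 1.78 and 7.31 CPM in CM and at most 2 counts in any TGF-beta library, 85.9-fold (95% exact counting interval 36.5 to 266) higher in CM (adjusted p 6.62e-06, edgeR). Il33, a nuclear alarm cytokine, had 93.5 ± 39.3 CPM in CM and 17.2 ± 16.4 CPM with TGF-beta (log2 fold change 2.45, SE 0.61, adjusted p 0.00612, edgeR), and its call ended with the T6 libraries alone (adjusted p 0.0653, edgeR). Lif, the ligand that drives STAT3 in stellate cells, had 19.3, 35.7, 27.6 and 51.6 and 9.96, 11.5, 33.5 and 26.8 CPM and was not called (log2 fold change 0.82, SE 0.44, adjusted p 0.169, edgeR).

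**Figure D3:**
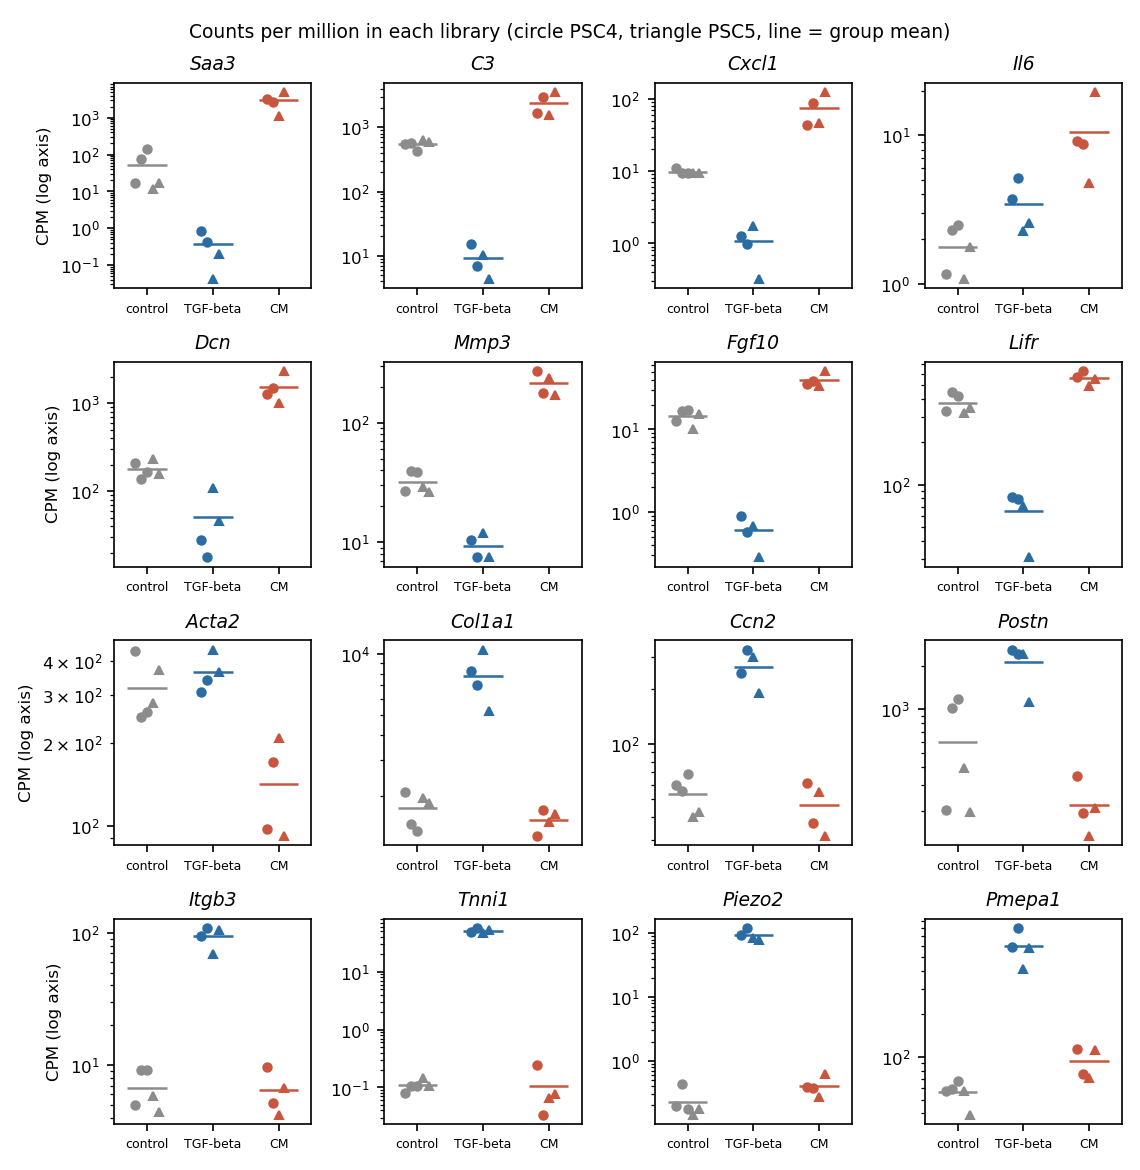
CPM on log axes (y) in each control, TGF-beta and CM library (x) for 16 genes; circles are PSC4, triangles PSC5, and bars group means. For Saa3, C3, Cxcl1, Dcn and Mmp3 every control library lies between the CM and the TGF-beta libraries, and for Tnni1 and Piezo2 the TGF-beta libraries stand far above the rest.

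NF-kB is a transcription factor that inflammatory receptors release into the nucleus, and 22 of 23 genes of its pathway and feedback were higher in CM with 1 lower (median 1.21, log2). Tlr2, a receptor for bacterial lipoproteins, had 77.1, 108, 57.7 and 124 CPM in CM and 20.4, 22.3, 14.2 and 16.9 CPM with TGF-beta (log2 fold change 2.31, SE 0.36, adjusted p 0.000168, edgeR). Icam1, an adhesion molecule for leukocytes, had 60.3, 16.1, 17 and 20.2 and 5.94, 3.83, 3.53 and 1.67 CPM (log2 fold change 2.92, SE 0.76, adjusted p 0.00797, edgeR). The library PSC4 T6 stood above the other CM libraries for it, and with the T8 libraries alone the call ended (adjusted p 0.056, edgeR). Control held 29.5 CPM of Icam1 on average, with CM not called against it (0.17 ± 0.65) and TGF-beta lower (-2.75 ± 0.74, log2). Ripk2, a kinase downstream of NOD receptors, was the member lower in CM (24.7 ± 2.78 CPM in CM and 45.3 ± 10.2 CPM with TGF-beta, log2 fold change -0.87, SE 0.14, adjusted p 0.000295, edgeR). Among receptors of the IL-1 and IL-6 families and STAT3 feedback genes, 17 of 22 were higher in CM and 0 lower (median 1.02). Lifr, the receptor for LIF, had 568, 628, 489 and 551 CPM in CM and 81.6, 78.8, 70.9 and 30.8 CPM with TGF-beta (log2 fold change 3.11, SE 0.32, adjusted p 4.92e-06, edgeR). Il1r1, the signalling receptor for IL-1, had 167, 128, 101.4 and 147 and 52.4, 50.6, 55.7 and 28.8 CPM (log2 fold change 1.54, SE 0.27, adjusted p 0.000504, edgeR). Neither receptor was called in CM against control (0.61 ± 0.28 and 0.29 ± 0.25, log2), and both were lower with TGF-beta (-2.50 ± 0.30 and -1.25 ± 0.26, log2). Il1rn, the natural IL-1 receptor antagonist, had 16.1, 43.8, 29.7 and 50.9 and 4.47, 3.47, 4.39 and 3.7 CPM (log2 fold change 3.10, SE 0.48, adjusted p 0.000179, edgeR). Against control, 13 NF-kB genes were higher and 0 lower in CM, and 1 was higher and 12 lower with TGF-beta. For the receptors and STAT3 genes the counts were 10 and 1 in CM, and 1 and 15 with TGF-beta.

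Interferon-stimulated genes, which viral sensing turns on, gave few calls: 4 of 26 were higher in CM (beside 17.7% of all genes) and 0 lower. These were Mx1 (1.88 ± 0.52), Rsad2 (1.25 ± 0.36), Dhx58 (1.12 ± 0.32) and Oasl1 (0.66 ± 0.24, log2). Without the CM library PSC4 number 1, 0 of the list were called by edgeR, and without the TGF-beta library PSC4 number 2 there were 7. With the T6 libraries alone 0 were called. The call of Oasl1 ended also without CM PSC5 number 1 or 2, TGF-beta PSC4 number 3, or TGF-beta PSC5 number 1 or 2 (adjusted p 0.0649 to 0.122, edgeR), and under the replicate block (0.0599). Genes of MHC class I presentation, which display peptides to CD8 T cells, gave more calls: 15 of 21 were higher in CM and 0 lower (median 0.77). In CM against control, 4 of them were higher and 0 lower, and with TGF-beta 1 was higher and 10 lower. H2-K1, a classical class I chain, had 806 ± 185 CPM in CM and 246 ± 52.3 CPM with TGF-beta (log2 fold change 1.73, SE 0.29, adjusted p 0.000379, edgeR). H2-Q6 (3.43 ± 0.44) and H2-Q7 (2.75 ± 0.39, log2) had larger differences, but they are near-identical copies between which the counting could split reads. In the list for prostaglandins and hyaluronan, 5 of 20 genes were higher and 2 lower (35.0% called, beside 35.2% of all genes). Ptges, which makes prostaglandin E2, had 23.8 ± 5.06 CPM in CM and 3.34 ± 2.96 CPM with TGF-beta (log2 fold change 2.92, SE 0.35, adjusted p 1.83e-05, edgeR), and Ptgs2, the inducible cyclooxygenase, had 253 ± 104 CPM in CM and 66.4 ± 13 CPM with TGF-beta (log2 fold change 1.92, SE 0.34, adjusted p 0.000479, edgeR). Cemip, a hyaluronan-degrading protein, was higher in CM (2.29 ± 0.49, log2). Neither Ptges nor Cemip was called in CM against control (-0.19 ± 0.30 and -0.62 ± 0.44, log2). Both were lower with TGF-beta than in control (-3.11 ± 0.35 and -2.92 ± 0.48, log2). Ptgs1, the constitutive cyclooxygenase, was lower in CM (-0.40 ± 0.09), as was Cd44, a hyaluronan receptor (-0.49 ± 0.15, log2), whose call ended without the CM library PSC4 number 2 or the TGF-beta library PSC4 number 3 (adjusted p 0.0602 and 0.0671, edgeR).

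The TGF-beta pathway list held ligands, receptors and SMAD feedback genes. Of 26 tested, 4 were higher in CM and 9 lower (median -0.37), beside 17.7% and 17.5% of all genes. All 3 ligands were lower in CM than with TGF-beta. Tgfb1 had 81.7, 62.7, 45 and 83.7 CPM in CM and 183, 215, 115 and 170.0 CPM with TGF-beta (log2 fold change -1.31, SE 0.20, adjusted p 0.000122, edgeR), and control held 33.5 to 44.3 CPM. Tgfb3 was at 20.8 ± 5.42 CPM in CM and 115 ± 51.8 CPM with TGF-beta (log2 fold change -2.40, SE 0.29, adjusted p 1.89e-05, edgeR), and Tgfb2 at 6.99 ± 1.8 CPM in CM and 30.3 ± 8.26 CPM with TGF-beta (log2 fold change -2.12, SE 0.33, adjusted p 0.000167, edgeR). Among receptors, Tgfbr3, the co-receptor betaglycan, was higher in CM, with 393, 403, 347 and 418 CPM against 92.3, 73.9, 121 and 52.7 CPM (log2 fold change 2.20, SE 0.20, adjusted p 1.36e-06, edgeR). Tgfbr1, a signalling receptor, was higher in CM as well (0.77 ± 0.22, log2). Among feedback genes, Pmepa1, which sequesters SMADs, had 114, 75.9, 70.7 and 112 CPM in CM and 589.6, 796, 411 and 576 CPM with TGF-beta (log2 fold change -2.66, SE 0.26, adjusted p 2.72e-06, edgeR). Smad7, the inhibitory SMAD, had 26.1, 30.1, 30.6 and 33.8 and 41.1, 56.5, 48.2 and 55.1 CPM, with no overlap (log2 fold change -0.74, SE 0.14, adjusted p 0.000685, edgeR), and CM was not called against control (0.02 ± 0.13, log2, adjusted p 0.947, edgeR). Bambi, a decoy receptor, was higher in CM (0.88 ± 0.21, log2). Against control, 5 genes of the list were higher and 1 lower in CM, and 11 were higher and 3 lower with TGF-beta.

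Of 26 BMP, activin and ID genes, 6 were higher in CM and 5 lower (3 without the CM library PSC5 number 2), beside 17.7% and 17.5% of all genes. The activin subunit genes went opposite ways: Inhba was lower in CM (65.5 ± 18.2 CPM in CM and 191 ± 21.4 CPM with TGF-beta, log2 fold change -1.54, SE 0.20, adjusted p 4.45e-05, edgeR) and Inhbb higher (157 ± 32.6 CPM in CM and 37.1 ± 17.7 CPM with TGF-beta, log2 fold change 2.09, SE 0.49, adjusted p 0.00415, edgeR). Grem1, a secreted BMP antagonist, was higher in CM, with 3480.5, 2947, 2677 and 3650.3 CPM against 1548, 1636, 1302 and 909 CPM (log2 fold change 1.25, SE 0.18, adjusted p 0.000104, edgeR). The BMP targets Id1 (0.85 ± 0.24) and Id3 (1.05 ± 0.29, log2) were higher in CM than with TGF-beta and lay below control in both. Fstl3, an activin-binding protein, was lower in CM (-1.63 ± 0.14, log2). Control held 183 CPM of Inhbb on average. Inhbb and Grem1 were not called in CM against control (-0.22 ± 0.45 and 0.26 ± 0.17). Both were lower with TGF-beta than in control (-2.32 ± 0.48 and -0.99 ± 0.18, log2).

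Smooth muscle contractile genes, the defining set of myofibroblasts, were lower in CM: 15 of 23 were lower and 1 higher (median -0.49), or 2 higher with the replicate block. Acta2, the smooth muscle actin that marks myofibroblasts, had 97.5, 170.3, 209.9 and 91.9 CPM in CM and 308, 341, 439 and 365 CPM with TGF-beta, with no overlap (log2 fold change -1.34, SE 0.31, adjusted p 0.0036, edgeR). Control libraries held 249.6 to 432 CPM. Against control, Acta2 was lower in CM (-1.21 ± 0.30, log2, adjusted p 0.0163, edgeR), and it was not called with TGF-beta (0.13 ± 0.29, log2, adjusted p 0.761, edgeR). Tagln, an actin-binding protein of the same cells, had 53.5, 102, 124 and 68.5 and 107, 122, 239.8 and 199 CPM, and the groups overlapped (log2 fold change -0.87, SE 0.30, adjusted p 0.0373, edgeR). Tagln was called in 11 of the 21 other settings. It was not called without any 1 of 6 libraries: CM PSC4 number 2 (adjusted p 0.096), CM PSC5 numbers 1 (0.115) and 2 (0.0564), and TGF-beta PSC4 number 3 (0.0668) and PSC5 numbers 1 (0.0886) and 2 (0.0606, edgeR). Actg2, the enteric smooth muscle actin, was lower in CM (14.5 ± 4.0 CPM in CM and 41.3 ± 19.8 CPM with TGF-beta, log2 fold change -1.41, SE 0.31, adjusted p 0.00287, edgeR), as were the cytoskeletal genes Smtn (-1.23 ± 0.10) and Flna (-0.98 ± 0.11, log2). Lmod1, an actin nucleator, was the member higher in CM, at 5.54 ± 1.68 CPM in CM and 2.57 ± 0.734 CPM with TGF-beta, with 18.2 ± 1.54 CPM in control (SD, n = 5). Its call held in 14 of the 21 other settings and ended without CM PSC4 number 1, CM PSC5 number 2, TGF-beta PSC4 number 2 or 3, or TGF-beta PSC5 number 2 (adjusted p 0.0548 to 0.0882, edgeR). Against control, 0 members were higher and 12 lower in CM, and 8 were higher and 5 lower with TGF-beta.

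Of 30 genes of striated muscle, 9 passed the filter and 2 were called (22.2%, beside 35.2% of all genes), both lower in CM. Without CM PSC4 number 1, CM PSC5 number 1 or TGF-beta PSC5 number 1, and with the replicate block, 1 further member was called higher. Tnni1, the slow skeletal troponin I, had 0.247, 0.034, 0.0671 and 0.0765 CPM in CM and 49.2, 56.5, 46 and 53.5 CPM with TGF-beta (log2 fold change -8.86, SE 0.41, adjusted p 2.45e-09, edgeR). Its level in CM did not differ from control by the test (-0.04 ± 0.63, log2, adjusted p 0.975, edgeR). Tnnt2, the cardiac troponin T, had 0.212, 0.17, 0.604 and 0.459 and 30.1, 31.2, 31.3 and 38.6 CPM (log2 fold change -6.52, SE 0.34, adjusted p 7.41e-09, edgeR). One of the Tnni1 promoter entries is shown as the widest gap in the opposite direction with a RefSeq entry. Its capitals mark an RBPJ match on the forward strand. The other entry, chr1:135799261-135799560, is not printed. It held the same RBPJ match and, before the start site, a short SMAD site on the reverse strand.
Tnni1, chr1:135799171-135799470, plus strand: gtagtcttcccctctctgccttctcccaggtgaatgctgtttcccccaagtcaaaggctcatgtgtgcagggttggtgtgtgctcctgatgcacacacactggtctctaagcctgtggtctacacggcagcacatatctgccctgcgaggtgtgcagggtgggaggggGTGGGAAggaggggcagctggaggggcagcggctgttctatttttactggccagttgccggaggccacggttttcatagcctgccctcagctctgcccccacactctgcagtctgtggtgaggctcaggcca

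Collagen chains were the list with the most members lower in CM: 24 of 39 were lower and 4 higher (median -1.29). Col1a1, the main fibrillar collagen chain, had 1279.6, 1724, 1492 and 1643 CPM in CM and 8248, 7027, 10485 and 5244 CPM with TGF-beta (log2 fold change -2.34, SE 0.32, adjusted p 5.08e-05, edgeR). Control held 1353 to 2093 CPM, and CM was not called against it (-0.21 ± 0.29, log2, adjusted p 0.672, edgeR). Col15a1, a chain of vascular and muscle basement membranes, had 1.98, 0.747, 0.704 and 0.688 and 365, 488, 63.8 and 41.3 CPM (log2 fold change -7.52, SE 0.66, adjusted p 1.1e-06, edgeR). With TGF-beta its PSC4 libraries lay above its PSC5 libraries. Col10a1, a cartilage collagen, had at most 2 counts in any CM library and 23.9, 25.7, 1.2 and 0.732 CPM with TGF-beta, 311-fold (95% exact counting interval 133 to 958) lower in CM (adjusted p 5.46e-05, edgeR). This fold and interval pool both lines and describe neither alone. The Col10a1 counts with TGF-beta were 637 and 712 in PSC4 but 28 and 18 in PSC5. The beaded-filament chain Col6a3 had 81.6 ± 52.8 CPM in CM and 1003 ± 364 CPM with TGF-beta (log2 fold change -3.65, SE 0.47, adjusted p 3.9e-05, edgeR), and the anchoring-fibril chain Col7a1 had 7.3 ± 2.69 CPM in CM and 112 ± 58.9 CPM with TGF-beta (log2 fold change -3.82, SE 0.33, adjusted p 9.59e-07, edgeR). The members higher in CM were Col23a1 (3.71 ± 0.40), a membrane collagen, and at low levels Col6a4 (2.21 ± 0.49), Col24a1 (2.01 ± 0.68) and Col4a6 (1.68 ± 0.36, log2). The call of Col24a1 ended without CM PSC4 number 1 or 2, TGF-beta PSC4 number 2 or 3, or TGF-beta PSC5 number 2 (adjusted p 0.0532 to 0.0939, edgeR). Against control, 0 chains were higher and 10 lower in CM, and 21 were higher and 5 lower with TGF-beta. Of 29 genes for collagen modification and crosslinking, 1 was higher in CM (3 with the replicate block) and 14 lower. Tll1, a protease that trims procollagen ends, had 3.29 ± 0.573 CPM in CM and 37.7 ± 10.6 CPM with TGF-beta (log2 fold change -3.50, SE 0.26, adjusted p 2.16e-07, edgeR), and Pcolce2, an enhancer of that cleavage, had 2.44 ± 1.11 CPM in CM and 27.1 ± 1.88 CPM with TGF-beta (log2 fold change -3.49, SE 0.31, adjusted p 1.27e-06, edgeR). Serpinh1, the collagen chaperone, was lower in CM (-0.68 ± 0.09, log2).

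Of 31 proteoglycans and matricellular proteins, which bind and organise the fibres, 4 were higher in CM (7 with the replicate block) and 11 lower. The shares of all genes were 17.7% and 17.5%. Dcn, the collagen-binding proteoglycan decorin, had 1283, 1509, 1014 and 2341 CPM in CM and 27.9, 17.7, 110.2 and 46.1 CPM with TGF-beta (log2 fold change 5.05, SE 0.50, adjusted p 3.49e-06, edgeR). It was called in both directions against control, 3.03 ± 0.42 in CM and -2.01 ± 0.44 with TGF-beta (log2), from 137 to 233 CPM. Fmod, fibromodulin of the same family, was lower in CM, with 9.77, 3.23, 1.64 and 1.26 and 308, 368, 32 and 23.9 CPM (log2 fold change -5.15, SE 0.72, adjusted p 7.68e-05, edgeR). Ccn2, connective tissue growth factor, had 61.3, 37.1, 54.5 and 31.4 CPM in CM and 243, 328, 299 and 189.7 CPM with TGF-beta (log2 fold change -2.52, SE 0.33, adjusted p 4.5e-05, edgeR). Postn, periostin, had 349, 192, 135 and 210.1 and 2581, 2418, 2410.4 and 1126 CPM (log2 fold change -3.29, SE 0.95, adjusted p 0.0142, edgeR). It was not called with 2 libraries in the CM group (adjusted p 0.106 with T6 and 0.0922 with T8, edgeR), though its log2 fold change stayed between -3.45 and -2.63 in all settings. Tnxb, tenascin X, was higher in CM (18.9 ± 9.18 CPM in CM and 1.6 ± 0.79 CPM with TGF-beta, log2 fold change 3.59, SE 0.37, adjusted p 5.26e-06, edgeR). Control held 24.6 CPM of Tnxb on average, with CM not called against it (-0.33 ± 0.30) and TGF-beta lower (-3.91 ± 0.37, log2). Among elastic fibre genes 5 of 17 were higher and 8 lower. Fbn1, fibrillin, had 126 ± 17.3 CPM in CM and 589 ± 124 CPM with TGF-beta (log2 fold change -2.22, SE 0.17, adjusted p 3.46e-07, edgeR), and Mfap5, a microfibril protein, had 0.968 ± 0.518 CPM in CM and 19.1 ± 17.2 CPM with TGF-beta (log2 fold change -3.83, SE 0.70, adjusted p 0.000653, edgeR). Adamtsl2, a microfibril-associated protein, was lower too (-4.82 ± 0.75). Svep1 (2.01 ± 0.50) and Efemp1 (1.92 ± 0.42, log2), both matrix glycoproteins, were higher in CM. Neither was called in CM against control (-0.12 ± 0.45 and -0.47 ± 0.38), and both were lower with TGF-beta (-2.13 ± 0.48 and -2.39 ± 0.41, log2).

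Cell-matrix receptors and basement membrane genes gave 5 higher and 8 lower of 31, beside 17.7% and 17.5% of all genes. The number higher was 8 with the replicate block, 10 without the libraries labelled PSC4 number 1, and 2 with the T8 libraries alone. Itgb3, the beta chain of the vitronectin receptor, had 9.7, 5.16, 4.23 and 6.69 CPM in CM and 94, 108, 69.5 and 106 CPM with TGF-beta (log2 fold change -3.89, SE 0.33, adjusted p 8.43e-07, edgeR). Itga5, the fibronectin receptor chain, was lower in CM (205 ± 28.3 CPM in CM and 542 ± 83.1 CPM with TGF-beta, log2 fold change -1.40, SE 0.14, adjusted p 4.49e-06, edgeR). Itga9, an integrin chain for tenascin, was lower as well, with 1.45, 0.238, 0.0335 and 0.153 CPM in CM and 14.4, 23.4, 0.473 and 0.773 CPM with TGF-beta (log2 fold change -3.92, SE 0.96, adjusted p 0.0054, edgeR). Its TGF-beta values were high in PSC4 only, and the groups overlapped. Lama4, a laminin chain of vessels and muscle, was higher in CM (147 ± 32.6 CPM in CM and 30.3 ± 19.9 CPM with TGF-beta, log2 fold change 2.27, SE 0.50, adjusted p 0.00267, edgeR), as was Nid2, a laminin-binding linker (1.61 ± 0.39, log2). Without the TGF-beta library PSC5 number 2, 3 members were higher in place of 5. Nid2 was not called in CM against control (-0.08 ± 0.36) and was lower with TGF-beta (-1.69 ± 0.38, log2). Of 34 proteases and inhibitors, 12 were higher in CM and 10 lower. The collagenase Mmp13 had 75.2, 21.9, 19.7 and 23.5 CPM in CM and 1.99, 1.34, 0.344 and 0.122 CPM with TGF-beta (log2 fold change 5.37, SE 0.52, adjusted p 2.72e-06, edgeR), and the stromelysin Mmp3 had 271, 176, 238 and 170.1 and 10.5, 7.48, 12 and 7.53 CPM (log2 fold change 4.50, SE 0.31, adjusted p 1.11e-07, edgeR). Mmp3 was called in both directions against control (2.76 ± 0.26 in CM, -1.74 ± 0.27 with TGF-beta, log2). Ctsw, a cathepsin known from cytotoxic lymphocytes, was lower in CM, with 2 to 4 counts per CM library and 23.4, 24.6, 24.4 and 39.8 CPM with TGF-beta (log2 fold change -7.99, SE 0.29, adjusted p 1.96e-10, edgeR). The lymphocyte markers Cd3e and Nkg7 were at 0 in all 8 libraries. Fcer1g, of the same immune list, had 2 to 8 counts in CM libraries and 11 to 42 in TGF-beta libraries. Of 6 immune markers tested, 2 were called higher in CM and 1 lower. The source of Ctsw was not tested. Adamts16, a secreted metalloprotease, was lower (-5.55 ± 0.65), and Timp3, a matrix-bound protease inhibitor, had 202 ± 66 CPM in CM and 823 ± 534 CPM with TGF-beta (log2 fold change -1.90, SE 0.42, adjusted p 0.00254, edgeR).

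Notch receptors signal between neighbouring cells through RBPJ to HES and HEY repressors. Of 18 Notch pathway genes, 0 were higher in CM and 9 lower (median -0.56). Heyl had 1 count in PSC4 T6 and 0 in the other CM libraries, and 16.3, 16.8, 7.35 and 12.6 CPM with TGF-beta, 1535-fold (95% exact counting interval 275 to 60688) lower in CM (adjusted p 1.21e-07, edgeR). Its control libraries also had at most 1 count. Hey1 had 0.741, 0.306, 0.402 and 0.115 and 19.4, 16.7, 4.9 and 10.9 CPM (log2 fold change -4.99, SE 0.45, adjusted p 1.29e-06, edgeR), Hes1 had 8.59 ± 0.61 CPM in CM and 39.9 ± 10.5 CPM with TGF-beta (log2 fold change -2.21, SE 0.17, adjusted p 2.11e-07, edgeR), and the ligand gene Jag1 had 10.2 ± 1.54 CPM in CM and 80.1 ± 17.8 CPM with TGF-beta (log2 fold change -2.99, SE 0.24, adjusted p 5.51e-07, edgeR). Against control, 0 genes were higher and 4 lower in CM, and 7 were higher and 3 lower with TGF-beta.

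WNT ligands and their secreted antagonists gave 8 higher and 7 lower of 27. Wnt11 (0.361 ± 0.0511 CPM in CM and 8.07 ± 2.94 CPM with TGF-beta, log2 fold change -4.43, SE 0.32, adjusted p 1.35e-07, edgeR) and Wnt9a (-2.50 ± 0.28, log2), both secreted ligands, were lower in CM, as was Lef1, a transcription factor and target of the pathway (-1.82 ± 0.29, log2). The antagonist Sfrp2 was higher in CM, with 147, 42.6, 16.3 and 29.4 CPM against 11.8, 11.6, 0.602 and 0.163 CPM (log2 fold change 3.77, SE 1.02, adjusted p 0.00999, edgeR), and PSC4 T6 was above the other CM libraries. Sfrp1 was also higher (log2 fold change 2.63, SE 0.97, adjusted p 0.0476, edgeR), but its call ended without any 1 of the 8 libraries other than CM PSC4 number 1 (adjusted p 0.0696 to 0.114, edgeR). Control held 167 CPM of Sfrp2 and 116 CPM of Sfrp1 on average. Neither was called in CM against control (-1.09 ± 0.84 and 0.05 ± 0.85), and both were lower with TGF-beta (-4.86 ± 1.03 and -2.58 ± 0.93, log2). The number of members higher in CM was 4 without the CM library PSC4 number 2, and 5 without the CM library PSC5 number 1 or any 1 of the TGF-beta libraries.

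Among IGF, FGF, PDGF and VEGF family genes 13 of 38 were higher and 13 lower. Fgf10, an epithelial growth factor made by mesenchyme, had 35.9, 38.6, 33.6 and 51 CPM in CM and 0.902, 0.578, 0.688 and 0.285 CPM with TGF-beta (log2 fold change 6.02, SE 0.28, adjusted p 2.45e-09, edgeR). Its related gene Fgf7 had 191 ± 39.9 CPM in CM and 15.3 ± 4.93 CPM with TGF-beta (log2 fold change 3.64, SE 0.23, adjusted p 5.78e-08, edgeR). Fgf23, a phosphate-regulating hormone, had 287, 90, 51.8 and 86.4 and 1.31, 0.795, 0.086 and 0 CPM (log2 fold change 8.0, SE 1.2, adjusted p 0.000132, edgeR), and limma-voom did not call it (adjusted p 0.138). Fgf21, a metabolic hormone, was lower in CM (0.193 ± 0.039 CPM in CM and 7.1 ± 2.27 CPM with TGF-beta, log2 fold change -5.17, SE 0.49, adjusted p 1.89e-06, edgeR). Igfbp3, an IGF carrier, was higher (127 ± 64.6 CPM in CM and 2.72 ± 2.68 CPM with TGF-beta, log2 fold change 5.68, SE 0.70, adjusted p 2.53e-05, edgeR). Of the PDGF genes, the ligands Pdgfb (2.51 ± 0.704 CPM in CM and 34.9 ± 12 CPM with TGF-beta, log2 fold change -3.73, SE 0.34, adjusted p 1.41e-06, edgeR), Pdgfa (-2.07 ± 0.14) and Pdgfc (-3.28 ± 0.24, log2) were lower in CM. The receptor Pdgfra, a marker of inflammatory fibroblasts, had 610.0, 374, 366 and 369.8 CPM in CM and 198, 174, 182 and 56.7 CPM with TGF-beta (log2 fold change 1.51, SE 0.46, adjusted p 0.0185, edgeR). Its call ended without CM PSC4 number 2 or without TGF-beta PSC5 number 2 (adjusted p 0.0508 in each case), and with the T8 libraries alone (0.103, edgeR). Control held 436 CPM of Pdgfra on average, beside 430 CPM in CM and 153 CPM with TGF-beta. Thy1, a general fibroblast surface marker, was not called, with 88.1, 51.8, 60.1 and 59.5 and 87.9, 77, 85.3 and 59.4 CPM (log2 fold change -0.26, SE 0.25, adjusted p 0.455, edgeR).

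ERBB receptors bind EGF family ligands and signal through ERK. Of 13 such genes, 4 were higher in CM and 3 lower. Egfr, the receptor, had 215, 317, 314 and 365 CPM in CM and 82.8, 85.7, 161 and 124 CPM with TGF-beta (log2 fold change 1.45, SE 0.19, adjusted p 4.73e-05, edgeR), and was called in both directions against control (0.83 ± 0.18 in CM, -0.62 ± 0.18 with TGF-beta, log2). The ligand Ereg was higher in CM (78.4 ± 27.9 CPM in CM and 23.5 ± 3.36 CPM with TGF-beta, log2 fold change 1.73, SE 0.22, adjusted p 2.51e-05, edgeR) and the ligand Hbegf lower (27.1 ± 7.25 CPM in CM and 121 ± 32.8 CPM with TGF-beta, log2 fold change -2.14, SE 0.29, adjusted p 6.03e-05, edgeR). Lrig3, a transmembrane protein of a family that restrains receptors, was lower in CM (-0.52 ± 0.10, log2). Of 25 ERK feedback and target genes, 8 were higher and 4 lower (8 with the replicate block), beside 17.7% and 17.5% of all genes. The higher ones included the ETS factor Etv1 (59.9 ± 11.7 CPM in CM and 16.3 ± 4.23 CPM with TGF-beta, log2 fold change 1.89, SE 0.24, adjusted p 3.3e-05, edgeR) and Phlda1, induced by growth factors (1.31 ± 0.22, log2). The immediate early factors Egr2 (-2.05 ± 0.40) and Egr3 (-2.36 ± 0.32, log2) were lower in CM. Without CM PSC4 number 2, CM PSC5 number 1 or TGF-beta PSC5 number 2, 5 members were higher in place of 8.

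Of 32 S phase and mitosis genes, 5 were higher in CM and 9 lower, beside 17.7% and 17.5% of all genes. Differences were small. Those higher were replication genes: Cdc6 (0.42 ± 0.12), Mcm3 (0.26 ± 0.07), Mcm7 (0.24 ± 0.06), Pcna (0.24 ± 0.07) and Mcm2 (0.16 ± 0.06, log2). Without CM PSC5 number 1 or TGF-beta PSC5 number 1 they were 3, since the calls of Mcm2 and Pcna ended. The call of Mcm2 also ended without CM PSC4 number 2, CM PSC5 number 2, or TGF-beta PSC4 number 2 or 3 (adjusted p 0.0615 to 0.136 over these 6, edgeR). Those lower included Mki67, the nuclear proliferation antigen (486, 386, 394 and 446 CPM in CM and 697, 665, 537 and 495 CPM with TGF-beta, log2 fold change -0.47, SE 0.11, adjusted p 0.00264, edgeR), and Plk1, a mitotic kinase (-0.52 ± 0.07, log2). Against control, 7 genes of the list were higher and 0 lower in CM, and 22 were higher and 1 lower with TGF-beta. Of 22 CDK inhibitor, cyclin D and p53 target genes, 1 was higher (Btg2, an antiproliferative factor, 0.66 ± 0.15, log2) and 4 lower in CM. The share called, 22.7%, was below the 35.2% of all genes. Without CM PSC4 number 2 or TGF-beta PSC5 number 2, 2 were higher, and with the replicate block 5. The lower genes were the stress gene Gadd45a (43.9 ± 6.73 CPM in CM and 177 ± 63.2 CPM with TGF-beta, log2 fold change -1.98, SE 0.20, adjusted p 4.29e-06, edgeR) and, with smaller differences, Cdkn2b (-0.98 ± 0.14), Gadd45g (-0.74 ± 0.17) and Cdkn2a (-0.49 ± 0.09, log2).

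**Figure D4:**
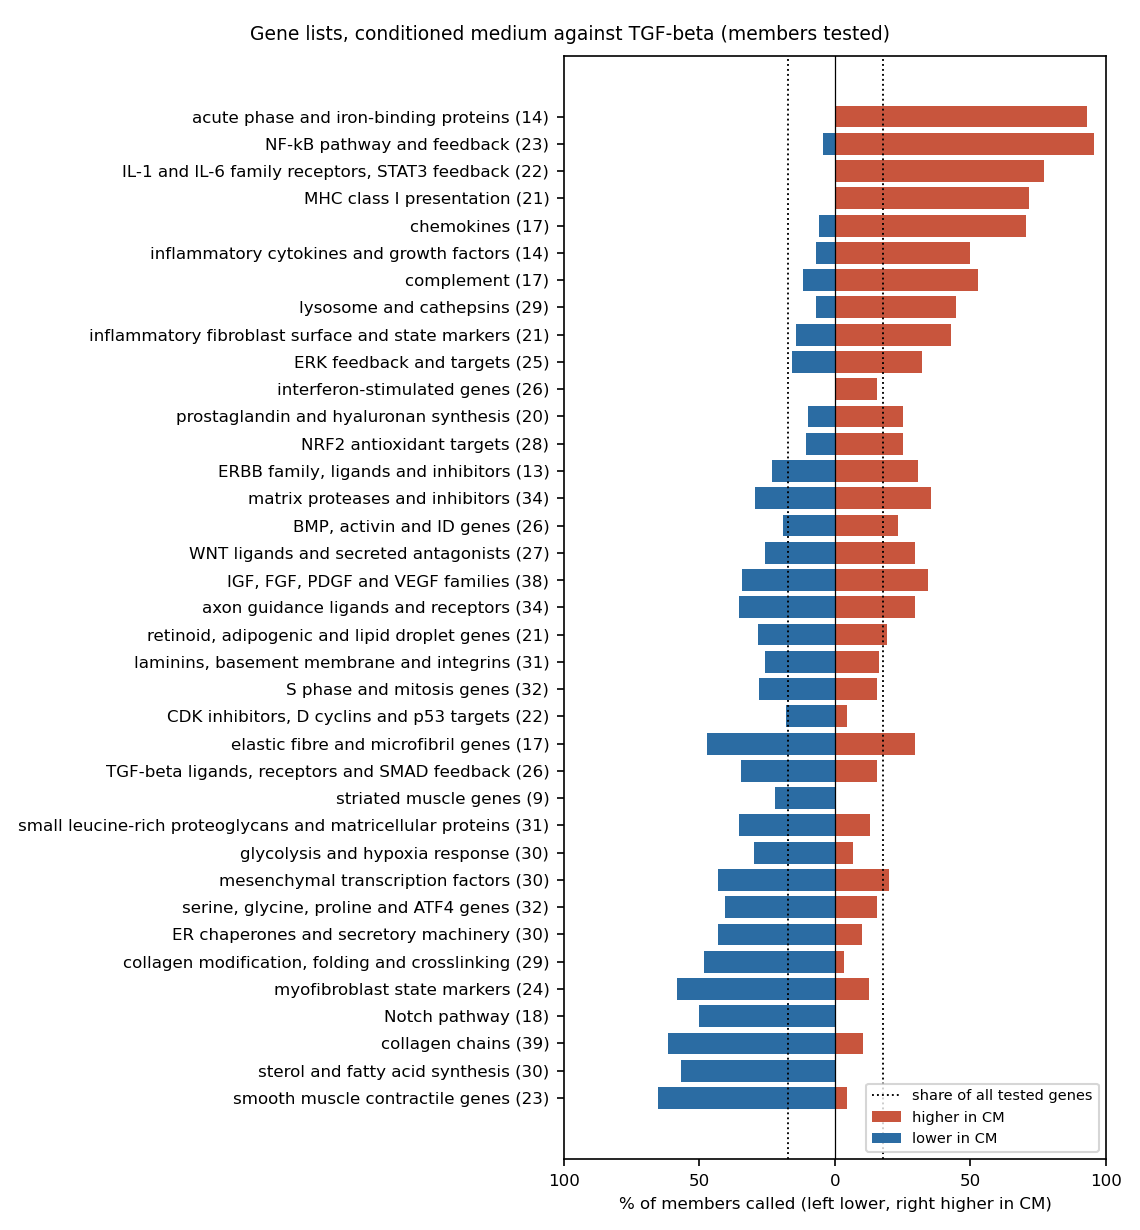
Share of tested members called higher in CM (red, to the right) and lower in CM (blue, to the left) in each of 37 gene lists (y axis, members tested in brackets); dotted lines mark the shares of all tested genes, 17.7% and 17.5%. Acute phase, NF-kB and receptor lists lie to the right, and smooth muscle, sterol synthesis, collagen chain and Notch lists to the left.

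Some list counts moved by more than 1.5 times when libraries were left out. Without the libraries labelled PSC4 number 1, the members higher in CM were 3 in place of 1 for CDK inhibitors and p53 targets, 5 in place of 3 for ER chaperones, 2 in place of 1 for smooth muscle and 1 in place of 0 for striated muscle. The members lower in CM were then 7 in place of 4 for ERK genes and 2 in place of 1 for cytokines. With the T6 libraries alone, the members higher in CM were 8 in place of 13 for lysosome genes, 6 in place of 10 for axon guidance, 4 in place of 8 for ERK genes, 2 in place of 5 for S phase and mitosis, and 1 in place of 3 for ER chaperones. The members lower were 8 in place of 14 for collagen modification, 5 in place of 8 for laminins and integrins, and 4 in place of 9 for S phase and mitosis. With the T8 libraries alone, the members higher in CM were 7 in place of 13 for growth factors, 5 in place of 8 for both WNT and ERK genes, 3 in place of 6 for BMP genes, 2 in place of 5 for S phase and mitosis, and 2 in place of 4 for retinoid and lipid genes. The members lower were 11 in place of 17 for sterol synthesis, 9 in place of 14 for collagen modification, 7 in place of 13 for ATF4 genes and 3 in place of 5 for BMP genes. Other pathway list counts of 3 or fewer changed by 1 or 2.

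Sterol and fatty acid synthesis genes were lower in CM than with TGF-beta in 17 of 30 cases and higher in 0 (median -0.37). Against control all 30 were higher in CM and all 30 higher with TGF-beta. Scd2, a fatty acid desaturase, had 1401, 1398, 1183 and 1391 CPM in CM, 3228, 3384, 2637 and 2721 CPM with TGF-beta (log2 fold change -1.15, SE 0.10, adjusted p 1.07e-06, edgeR) and 591 to 744 CPM in control. Scd1, a desaturase of the same family (304 ± 22.9 CPM in CM and 758 ± 164 CPM with TGF-beta, log2 fold change -1.30, SE 0.12, adjusted p 1.99e-06, edgeR), held the same order. Of 32 serine, glycine, proline and ATF4 genes, 5 were higher and 13 lower, and 8 were lower without CM PSC4 number 2 or TGF-beta PSC5 number 2. Pycr1, which makes proline, was lower in CM (12.8 ± 1.73 CPM in CM and 34.6 ± 4.23 CPM with TGF-beta, log2 fold change -1.43, SE 0.26, adjusted p 0.000559, edgeR), as was the amino acid transporter Slc7a3 (-1.62 ± 0.26, log2), while Shmt1, a serine and glycine enzyme (0.90 ± 0.16), and Aldh4a1, which breaks proline down (0.54 ± 0.12, log2), were higher. Of 30 glycolysis and hypoxia genes, 2 were higher and 9 lower (36.7% called, beside 35.2% of all genes). Pfkp, a phosphofructokinase, had 34.6 ± 4.15 CPM in CM and 96.8 ± 26.1 CPM with TGF-beta (log2 fold change -1.48, SE 0.20, adjusted p 4.32e-05, edgeR). The members higher in CM were Adm, the vasodilator adrenomedullin (2.16 ± 0.62, and 3.28 without TGF-beta PSC5 number 1), and the enolase Eno2 (0.39 ± 0.09, log2). Egln3, an oxygen sensor, was lower at -1.48, and at -0.97 without TGF-beta PSC5 number 1, which held the highest value (39.0 CPM).

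Of 30 ER chaperone and secretory genes, 3 were higher in CM (5 with the replicate block) and 13 lower. Creb3l1 (33.4 ± 7.62 CPM in CM and 109 ± 3.35 CPM with TGF-beta, log2 fold change -1.72, SE 0.29, adjusted p 0.000399, edgeR) and Creb3l2 (-1.35 ± 0.18, log2), transcription factors of secretory cells, were lower, and the chaperone cofactor Sdf2l1 (0.85 ± 0.15) and the stress sensor Ern1 (0.55 ± 0.15, log2) were higher. Of 29 lysosome genes, 13 were higher in CM and 2 lower, or 1 lower without any 1 library other than CM PSC5 number 2 and TGF-beta PSC5 number 1. Ctsz, a cathepsin (189 ± 14.2 CPM in CM and 112 ± 8.92 CPM with TGF-beta, log2 fold change 0.76, SE 0.07, adjusted p 9.58e-07, edgeR), and Hexa, a glycolipid hydrolase (0.84 ± 0.12, log2), led them, and Tfeb, the transcription factor for lysosome genes, was lower (-0.65 ± 0.12, log2). Of 28 NRF2 targets, 7 were higher and 3 lower, or 1 lower without any 1 library other than CM PSC4 number 1 and TGF-beta PSC5 number 1. The share called with all libraries was 35.7%, beside 35.2% of all genes. Fth1, the ferritin heavy chain, had 3411, 2279, 2035 and 2789.9 CPM in CM and 1081, 943, 713 and 732 CPM with TGF-beta (log2 fold change 1.61, SE 0.14, adjusted p 9.59e-07, edgeR), and Gstm1, a glutathione transferase with close copies, had 76.3 ± 5.59 CPM in CM and 37.1 ± 5.81 CPM with TGF-beta (log2 fold change 1.04, SE 0.12, adjusted p 8.14e-06, edgeR). Me1, an NADPH-making enzyme, was lower in CM (-0.30 ± 0.07, log2). Among retinoid, adipogenic and lipid droplet genes, 4 of 21 were higher and 6 lower, beside 17.7% and 17.5% of all genes. Lpl, lipoprotein lipase, had 102 ± 28.9 CPM in CM and 11.7 ± 3.76 CPM with TGF-beta (log2 fold change 3.13, SE 0.50, adjusted p 0.000219, edgeR), and the fatty acid carrier Fabp4 had 8.06 ± 2.27 CPM in CM and 0.748 ± 0.998 CPM with TGF-beta (log2 fold change 3.53, SE 0.62, adjusted p 0.000469, edgeR). Aldh1a3, which makes retinoic acid, had 0.882, 0.306, 0.805 and 0.115 CPM in CM and 33.4, 46.6, 12.1 and 29.6 CPM with TGF-beta (log2 fold change -5.78, SE 0.61, adjusted p 6.41e-06, edgeR). G0s2, an inhibitor of lipid droplet lipase, was lower too (-4.55 ± 0.83, log2).

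The marker lists of the fibroblast states held calls in both directions. Of 21 markers of the inflammatory state, 9 were higher in CM and 3 lower (median 0.95), beside 17.7% and 17.5% of all genes. The lower ones were Ly6d (-6.11 ± 1.01), Pi16 (-1.26 ± 0.20) and Gsn (-0.51 ± 0.18, log2). The call of Gsn ended without any 1 library other than CM PSC5 number 2 and TGF-beta PSC5 number 2 (adjusted p 0.0692 to 0.109, edgeR) and under the replicate block (0.0905). In CM against control, 3 of the 21 markers were higher and 3 lower, and with TGF-beta 4 were higher and 12 lower. Of 24 markers of the myofibroblast state, 14 were lower in CM and 3 higher (median -1.1), beside 17.5% and 17.7% of all genes. In CM against control, 4 of the 24 were higher and 6 lower, and with TGF-beta 10 were higher and 3 lower. Lrrc15, a surface protein of tumour myofibroblasts, had 0.388, 0.136, 0.168 and 0.115 CPM in CM and 10.2, 11.7, 6.49 and 7.04 CPM with TGF-beta (log2 fold change -5.42, SE 0.43, adjusted p 3.46e-07, edgeR), and Cthrc1, secreted by matrix-producing fibroblasts, had 1.12 ± 0.539 CPM in CM and 23.9 ± 10.8 CPM with TGF-beta (log2 fold change -4.43, SE 0.44, adjusted p 3.21e-06, edgeR). The members higher in CM were Igfbp3 and Grem1, given above, and the protease Mmp11 (0.74 ± 0.27, log2), whose call ended without any 1 library other than CM PSC4 number 1 and TGF-beta PSC5 number 1 (adjusted p 0.0726 to 0.128, edgeR). Of 30 mesenchymal transcription factors, 6 were higher and 13 lower. Scx, a tendon factor, was lower in CM (1.48, 1.77, 1.34 and 0.727 CPM against 21.3, 20, 16.7 and 28.3 CPM, log2 fold change -4.01, SE 0.31, adjusted p 2.49e-07, edgeR), as were Runx1 (-1.26 ± 0.19) and the forkhead factor Foxs1 (-1.64 ± 0.23, log2). Prrx1, a regulator of limb and fibroblast mesenchyme, was higher (391 ± 58.8 CPM in CM and 145 ± 21.4 CPM with TGF-beta, log2 fold change 1.43, SE 0.12, adjusted p 6.45e-07, edgeR), as was the nuclear receptor Nr4a1 (1.53 ± 0.31, log2). Of 34 axon guidance genes, 10 were higher and 12 lower. Slit3, a secreted repellent ligand, was higher in CM (173 ± 46.3 CPM in CM and 9.28 ± 4.24 CPM with TGF-beta, log2 fold change 4.22, SE 0.38, adjusted p 1.35e-06, edgeR), as was the semaphorin Sema6a (3.37 ± 0.63, log2). Plxna4, a semaphorin receptor, had 0.67, 0.17, 0.302 and 0.65 CPM in CM and 142, 202, 43.8 and 64.1 CPM with TGF-beta (log2 fold change -7.84, SE 0.51, adjusted p 7.09e-08, edgeR), and Sema7a had 16 ± 2.79 CPM in CM and 151 ± 26.6 CPM with TGF-beta (log2 fold change -3.22, SE 0.28, adjusted p 1.08e-06, edgeR).

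The 12 largest differences in each direction held further genes outside the pathway lists. Higher in CM were Enpp2, the lysophospholipase D autotaxin, with 312, 953, 727 and 767 CPM in CM and 9.32, 5.67, 22.8 and 5.53 CPM with TGF-beta (log2 fold change 6.09, SE 0.61, adjusted p 3.58e-06, edgeR), and Sorbs2, a cytoskeletal adaptor, with 44.7 ± 13.5 CPM in CM and 0.176 ± 0.0109 CPM with TGF-beta (log2 fold change 7.95, SE 0.82, adjusted p 5.26e-06, edgeR). Enpp2 in CM was not called against control (0.51 ± 0.45, log2), and TGF-beta lowered it (-5.58 ± 0.59, log2). Chodl, a membrane lectin, had 1.98, 30.9, 46.4 and 13.9 and 0, 0.0722, 0.215 and 0 CPM (log2 fold change 8.46, SE 1.59, adjusted p 0.000797, edgeR), and its control libraries ran from 0.74 to 14.6 CPM. Krt7, a keratin of ducts and one of the epithelial markers above, had 24.2, 2.21, 17.7 and 6.77 CPM in CM and at most 1 count in any TGF-beta library, 436-fold (95% exact counting interval 149 to 2115) higher in CM (adjusted p 0.000515, edgeR). The T6 libraries with the high epithelial sums held most of its counts (686 and 527, against 65 and 177 in T8), and limma-voom did not call it (adjusted p 0.117). Lower in CM was Piezo2, a stretch-gated ion channel, with 0.388, 0.374, 0.268 and 0.612 CPM in CM and 95.7, 120.4, 84 and 79.4 CPM with TGF-beta (log2 fold change -7.84, SE 0.27, adjusted p 1.96e-10, edgeR). Add2, a spectrin-binding protein, had 0.544 ± 0.278 CPM in CM and 60.3 ± 13.2 CPM with TGF-beta (log2 fold change -6.79, SE 0.25, adjusted p 1.96e-10, edgeR), and Pkp1, a desmosome plaque protein, 0.528 ± 0.291 CPM in CM and 53.5 ± 16.8 CPM with TGF-beta (log2 fold change -6.75, SE 0.62, adjusted p 1.62e-06, edgeR). Nmu, the peptide neuromedin U, was lower (0.175 ± 0.0367 CPM in CM and 29.9 ± 20.8 CPM with TGF-beta, log2 fold change -7.22, SE 0.48, adjusted p 7.93e-08, edgeR), as were Greb1 (-6.74 ± 0.43) and the adhesion protein Cntn2 (-7.63 ± 0.80, log2).

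Promoter windows were searched for matches on both strands in genes that differed by at least 1 on the log2 scale. RefSeq windows of the same length were found for 609 of 856 genes with a symbol higher in CM, 503 of 717 lower in CM and 10444 of 13871 tested, with 1.28, 1.37 and 1.28 windows per gene. The C/EBP letters TTGCNNAA were in 17.2% of the genes higher in CM, 8.95% of those lower and 9.87% of all. The NF-kB site was in 18.6%, 15.1% and 12.6%, and the STAT letters TTCNNNGAA in 10.8%, 6.96% and 8.24%. The short SMAD site CAGACA was in 21.2% of the genes higher in CM, 27.8% of those lower and 19% of all. The AP-1 letters TGANTCA were in 11%, 11.9% and 6.43%, above the share of all genes in both directions. The TEAD letters GGAATG (17.7%, 17.1% and 14.4%), the RBPJ letters GTGGGAA (7.22%, 8.55% and 7.4%), the CArG box (1.81%, 1.79% and 1.61%) and the full SMAD element GTCTAGAC (0.164%, 0.398% and 0.306%) differed less between the sets. The motifs can overlap one another, and a match is a stretch of letters, not a bound site.

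**Figure D5:**
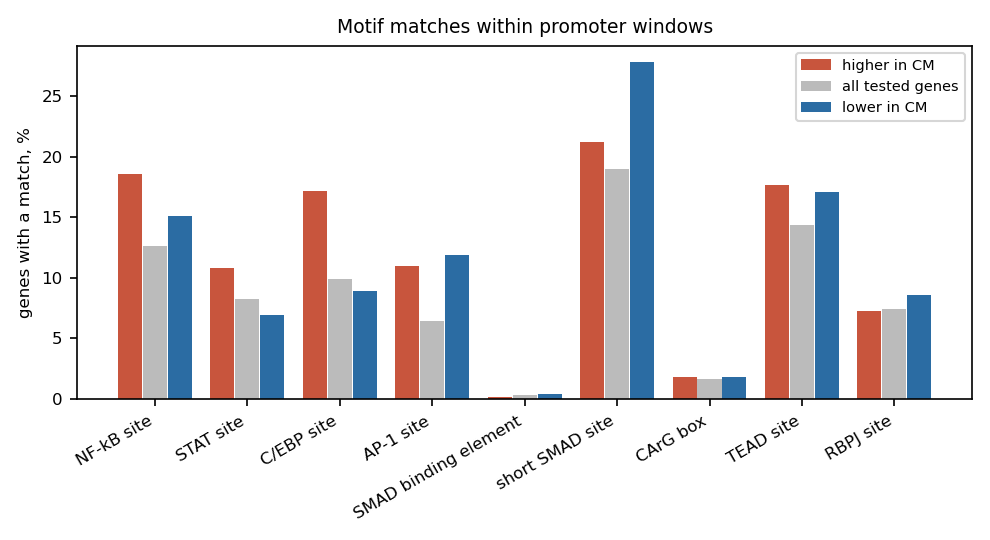
Share of genes with a motif match in a promoter window (y axis, from 0) for 9 motifs (x axis) among genes higher in CM, all genes tested and genes lower in CM. C/EBP matches are more frequent in genes higher in CM (17.2%) than in all genes (9.87%), and short SMAD sites in genes lower in CM (27.8% against 19%).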

How the data were processed

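The mRNA of 17 libraries was measured. Expected counts per gene were deposited by the authors, with Salmon 1.4.0, DESeq 2 and the builds GRCm38 and mm10 named in the submitters' processing notes; the annotation release is not given in the sources used here. Each table lists 35896 gene IDs, of which 35437 matched a symbol in the RefSeq tables. Of nonzero values 74.8% were not whole, and counts were rounded (totals moved by 308 or less). Genes were kept by edgeR's filterByExpr with a minimum count of 10 (minimum total 15) by group, and 13923 were tested.

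The test was edgeR's quasi-likelihood test (edgeR 4.0.16, limma 3.58.1, R 4.3.3, robust) with TMM factors, treatment group and cell line over all 17 libraries, including 4 with CM and 300 nM neratinib, which serve only the estimate of the spread. P-values were adjusted by Benjamini-Hochberg over all genes tested. The standard error is the log2 fold change over the square root of F. Sums over markers were compared by exact permutation. Where every library of a group had 3 counts or fewer, the ratio of pooled counts is given with its exact 95% interval, which covers counting error only. The script was tested on simulated data. Alternatives were other scalings, filters, DESeq2 1.42.0, limma-voom, other designs and left-out libraries.

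The gene lists, the genes always named and the tests were chosen with earlier results of these data known. Text genes are the 12 largest called differences each way (10 CPM or more on average where higher, no overlap), in each list the 2 largest called each way (5 CPM or more) and 20 genes named whatever their values. Other genes named in a list were chosen after their values were seen. Lists are described by counts and medians without a test. Same-numbered CM and TGF-beta libraries of a line correlated at 0.454, 0.259 and 0.139 over deviations from group means (0.0767, -0.0886 and -0.105 with the line also removed), and the number goes with the passage in the labels, so fits with the number as a block are given where they change a call. Promoter windows and positions are RefSeq's for GRCm38.p6. Some genes that the rule names are not reported here.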

Additional observations from a re-analysis of the deposited data

Results flagged for a closer look

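The 177 genes were examined in the CM, TGF-beta and control groups (531 groups), and groups whose highest value was under 1 CPM were skipped. Among the rest, 31 groups had 1 library far from the others, with a gap to the nearest library large beside the range of the group. Chance alone gives about 1 such group in 20. In the CM group 16 such values were found, in the TGF-beta group 13 and in control 2. No explanation was tested.

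The CM library PSC4 number 2 was lowest of its group for Bambi (19.7 CPM, others 24.2 to 24.8 CPM), Col7a1 (3.32 CPM, others 8.07 to 8.95 CPM) and Serpinh1 (696 CPM, others 809.5 to 828 CPM). The CM library PSC4 number 2 was highest of its group for Col15a1 (1.98 CPM, others 0.688 to 0.747 CPM), Col24a1 (2.65 CPM, others 2.01 to 2.1 CPM), Col6a3 (159.9 CPM, others 44.9 to 62 CPM), Fgf23 (287 CPM, others 51.8 to 90 CPM), G0s2 (1.87 CPM, others 0.191 to 0.306 CPM), Icam1 (60.3 CPM, others 16.1 to 20.2 CPM), Inhbb (206 CPM, others 137 to 146 CPM), Itga9 (1.45 CPM, others 0.0335 to 0.238 CPM), Mmp11 (106 CPM, others 59.5 to 64 CPM), Mmp13 (75.2 CPM, others 19.7 to 23.5 CPM), Pdgfra (610.0 CPM, others 366 to 374 CPM) and Sfrp1 (222 CPM, others 35.1 to 54.3 CPM). The TGF-beta library PSC5 number 1 was highest of its group for Col24a1 (1.33 CPM, others 0.244 to 0.397 CPM), Fabp4 (2.24 CPM, others 0.163 to 0.413 CPM), Igfbp3 (6.71 CPM, others 0.976 to 1.84 CPM), Lmod1 (3.65 CPM, others 2.1 to 2.35 CPM) and Ptges (7.74 CPM, others 1.3 to 2.25 CPM). The TGF-beta library PSC5 number 2 was highest of its group for Ctsw (39.8 CPM, others 23.4 to 24.6 CPM), Smtn (104 CPM, others 95.4 to 96.9 CPM), Tnnt2 (38.6 CPM, others 30.1 to 31.3 CPM) and Wnt11 (12.4 CPM, others 6.32 to 7.09 CPM). The control library PSC4 number 1 was highest of its group for Cxcl1 (11.2 CPM, others 9.38 to 9.55 CPM). The control library PSC4 number 3 was highest of its group for Fgf7 (112 CPM, others 95.3 to 100 CPM). The TGF-beta library PSC5 number 2 was lowest of its group for Pdgfra (56.7 CPM, others 174 to 198 CPM) and Postn (1126 CPM, others 2410.4 to 2581 CPM). The TGF-beta library PSC4 number 2 was lowest of its group for Ptgs2 (46.9 CPM, others 71.4 to 74.5 CPM). The TGF-beta library PSC4 number 3 was highest of its group for Runx1 (279 CPM, others 190.3 to 202 CPM). The CM library PSC5 number 2 was lowest of its group for Scd2 (1183 CPM, others 1391 to 1401 CPM).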

How the results depend on the processing

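Of 177 genes named, 143 kept direction and call in all 21 other settings run on CM against TGF-beta, 33 lost the call in at least 1, Cxcl12 gained it and 0 reversed. Under DESeq2, genes with no adjusted p were not counted. With the T6 libraries alone the calls of Adm, Cdc6, Col24a1, Cx3cl1, Dhx58, Egln3, Ern1, Gsn, Il33, Il6, Itga9, Lmod1, Mcm2, Mmp11, Mx1, Nid2, Oasl1, Pcna, Postn, Rsad2, Sfrp1, Tagln and Tgfbr1 ended. With the T8 libraries alone those of Cd44, Col24a1, Icam1, Id1, Id3, Lmod1, Mcm2, Mcm7, Mmp11, Oasl1, Pcna, Pdgfra, Postn, Sfrp1 and Tagln ended. These fits hold 2 CM libraries. Without the line term Eno2, Mcm2, Mmp11, Pcna, Sfrp1, Sfrp2, Tagln and Tgfbr1 were not called. The count for CM against TGF-beta was 4904, and 4076 to 4609 with 1 library left out; with a log2 change of at least 1 it was 1575. With the replicate block it was 6049, of which 4708 were among the 4904, and besides Cxcl12, Gsn and Oasl1 the block changed the call of no named gene. CM against control (1966) gave 3257 with the replicate block, 2998 with the libraries labelled PSC4 number 1 counted with PSC5, 377 with T6 alone, 1080 with T8 alone, 547 with a log2 change of at least 1, and 793 to 1789 with 1 library left out. TGF-beta against control (5591) gave 1666 with a log2 change of at least 1 and 4739 to 5508 with 1 library left out. The difference between lines (0) gave 19 with DESeq2, 1 without a filter and 0 to 2 with 1 library left out; the replicate block was not run for it. The ratio of fibroblast marker sums, CM over TGF-beta, was 0.436, and 0.393 to 0.486 with 1 library left out. The causes were not tested. At 24318973 to 29421447 counts per library, genes at 3 counts or fewer in a group are given as pooled folds. The intervals of these folds cover counting error only, not the spread between libraries or lines.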
